A study of Caenorhabditis elegans with 9 samples.

Results

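The histone genes of Caenorhabditis elegans were the 80 genes, of 46778 in the deposited table, whose symbol began with his- or hil- followed by a number. By class they were 16 H2A, 16 H2B, 15 H3 and 16 H4 core genes, 5 genes of the H3 variant H3.3 (his-69, his-70, his-71, his-72 and his-74), the H2A variant gene his-35, 9 linker histone H1 genes (his-24 and hil-1 to hil-8) and 2 short fragments (his-39 and his-73). RNA was measured in 9 libraries, 3 each of sorted oocyte P-bodies, dissected whole oocytes and whole-animal extracts. P-bodies are granules of the cytoplasm in which mRNA and its binding proteins gather. The series sets the RNA of these granules beside that of the cell they came from and that of the animal.

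All 3 groups were female and carried the same strain background, given in the labels as fog2 with car1:GFP and pgl1:RFP. In fog-2 mutants animals with 2 X chromosomes make no sperm, so unmated females hold arrested oocytes, and the labels name both L4 and oocyte arrest as stages, at day 3. CAR-1 is an RNA-binding protein of P-bodies and PGL-1 a protein of germ granules. The P-bodies were obtained by a particle sort (FAPS in the labels) and the oocytes by dissection, both labelled germline. The whole-animal extracts had neither step and were labelled somatic and germline. Debris was spun out of every extract except those of the P-bodies, so that step and the sort cannot be told apart from the group. The labels do not say that replicates came from separate cultures, so the spread behind each p-value may be technical and covers these samples only.

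Core histones H2A, H2B, H3 and H4 form the protein spool of the nucleosome, and linker histones of the H1 class bind the DNA between spools. Most core genes are replication-dependent: their short intronless mRNAs end, in animals generally, in a stem-loop bound by a stem-loop binding protein in place of a poly(A) tail. Variants such as H3.3 are made outside DNA replication from genes with introns and polyadenylated mRNAs. Oocytes store histone mRNA and protein for the cleavage divisions of the embryo. The libraries were made from total RNA without selection for poly(A), so both kinds of mRNA could be counted.

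Libraries held 27946955 to 78685226 counts, of which 27411 to 236533 fell on histone genes. The 22 ribosomal RNA genes held 29.8% to 38.04% of P-body counts, 86.8% to 88.8% of oocyte counts and 91.4% to 91.7% of whole-animal counts. The direction of many genes depended on the scaling. Unless stated otherwise values are scaled by TMM factors, which set the typical gene to no change, and CPM are counts scaled to a library of common size with those factors. With library totals alone the median of all tested genes moved up by 2.50 on the log2 scale for P-bodies against oocytes, by 0.68 for oocytes against whole animals and by 3.18 for P-bodies against whole animals. Shares within the histone counts do not depend on this choice. Of the marker lists, the summed level of 8 oocyte genes was 2679 to 2807 CPM in P-body, 2222 to 2469 in oocyte and 1897 to 2137 in whole-animal libraries. Among them spn-4 alone had a mean of 906 CPM in P-bodies and 251 in oocytes. The genes cbd-1 (695 and 1067) and rme-2 (225 and 391) had lower means in P-bodies than in oocytes, and the rest of the list higher ones. All 4 sperm genes were at 0 in the oocyte libraries. There the 3 hypodermis genes summed to 0.750 to 10.1 CPM, with dpy-7 at 0, and the 4 neuron genes to 21.02 to 29.3 CPM, with rab-3 at 0. In P-body, oocyte and whole-animal libraries 5 intestine genes summed to 348 to 608, 638 to 2205 and 13238 to 16566 CPM.

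The genes lay on chromosomes I (4), II (14), III (3), IV (24), V (30) and X (5) of the WBcel235 build. Divergently transcribed neighbours less than 1000 bases apart formed 31 pairs, 15 of an H2A with an H2B gene and 14 of an H3 with an H4 gene, and 58 of the 63 core genes were in a pair of these 2 kinds. The gap between the genes of a pair was 95 to 292 bases. In the annotation 64 members had a single exon, 60 of them core genes, and none of these had an annotated 3′ UTR. The remaining 16 had introns, and the same 16 had an annotated 3′ UTR. They were the 9 linker genes, his-35, the H3.3 genes his-71, his-72 and his-74, and the core genes his-37, his-41 and his-57.

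Near-identical copies limit what can be said of a single core gene. The H3 gene his-25 and its copy his-42 had equal counts in every library, 17 in total for each, and the H2B genes his-11 and his-15 had 131 and 132 counts that differed by 1 over the 9 libraries. A fragment may therefore have been counted for more than 1 copy, and single core genes are given as uncertain beside the sums of their class. The class sums and core shares add the counts of the copies. Fragments counted for several copies, or left out, would therefore change the level of these sums and shares too. A further 4 members are uncertain because another protein-coding gene overlaps them, his-37 (nstp-10), his-41 (C50F4.6), his-57 (klp-12) and his-73 (W09H1.4). Annotated genes that are not protein-coding overlap hil-2, his-4, his-8, his-16, his-20, his-24, his-54, his-63 and his-72. What these overlaps did to the counts was not tested. Of the 80 members 9 had no count in any library, namely his-39 and 8 core genes. The filter on low counts kept 48 members for testing and left out 32, 27 of them core genes, of which none had more than 30 counts over all libraries. Of those tested 5 (hil-3, hil-6, his-57, his-58 and his-71) passed only through their P-body counts, so counts over tested members describe the tested members and no more.

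P-bodies held a different mix of histone RNA from oocytes or whole animals. Core genes took 48.5%, 44.9% and 41.7% of all histone counts in the P-body libraries, 90.6%, 90.2% and 86.4% in the oocyte libraries and 89.4%, 88.8% and 88.5% in the whole-animal libraries. Linker H1 genes took 46.04%, 49.9% and 52.1% in P-body, 8.01%, 8.11% and 11.4% in oocyte and 9.07%, 9.44% and 9.62% in whole-animal libraries. Every P-body library thus held less core and more linker histone RNA, as a share of histone counts, than every other library, and the oocyte and whole-animal libraries overlapped. By summed TPM, a measure per length, core genes kept the larger mean share in P-bodies, at 58.4% beside 35.6% for linker genes. The TPM means of core and linker genes were 93.2% and 5.26% in oocytes and 93.1% and 5.42% in whole animals. By counts the mean linker share was 49.4% ± 3.09 in P-bodies and 9.18% ± 1.94 in oocytes (SD, n = 3; exact two-sided permutation p = 0.1, the floor with 3 libraries a group). The oocyte mean and the whole-animal mean of 9.38% ± 0.282 gave p = 1 in the same exact test.

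Within the core, each class took a smaller share of histone counts in P-bodies. H4 took 47.7% ± 5.13 of histone counts among oocytes and 45.8% ± 0.0363 among whole animals, and 23.0% ± 1.99 among P-bodies. For H3 the shares in P-bodies, oocytes and whole animals were 8.73% ± 1.25, 18.8% ± 1.71 and 20.5% ± 1.32. For H2B the shares were 7.13% ± 1.09, 12.8% ± 2.34 and 13.5% ± 0.793, and for H2A 6.24% ± 0.830, 9.81% ± 0.966 and 9.12% ± 0.336. By counts no P-body library overlapped with another group in any of the 4 classes (exact permutation p = 0.1, n = 3). By summed TPM the H2A share of P-body library 2, at 8.92%, lay above oocyte library 3 (8.77%) and whole-animal libraries 1 and 2 (8.89% and 8.82%). By counts oocytes and whole animals overlapped, with exact p between 0.4 and 0.7. H3.3 genes took a larger share in P-bodies, with 5.53% ± 0.494 of the histone counts for P-bodies, 1.70% ± 0.365 for oocytes and 1.59% ± 0.150 for whole animals. Of the counts on H3 and H3.3 genes together, H3.3 took 34.8%, 40.4% and 41.6% in the P-body, 6.44%, 9.06% and 9.44% in the oocyte and 6.07%, 7.56% and 8.03% in the whole-animal libraries.

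**Figure D1:**
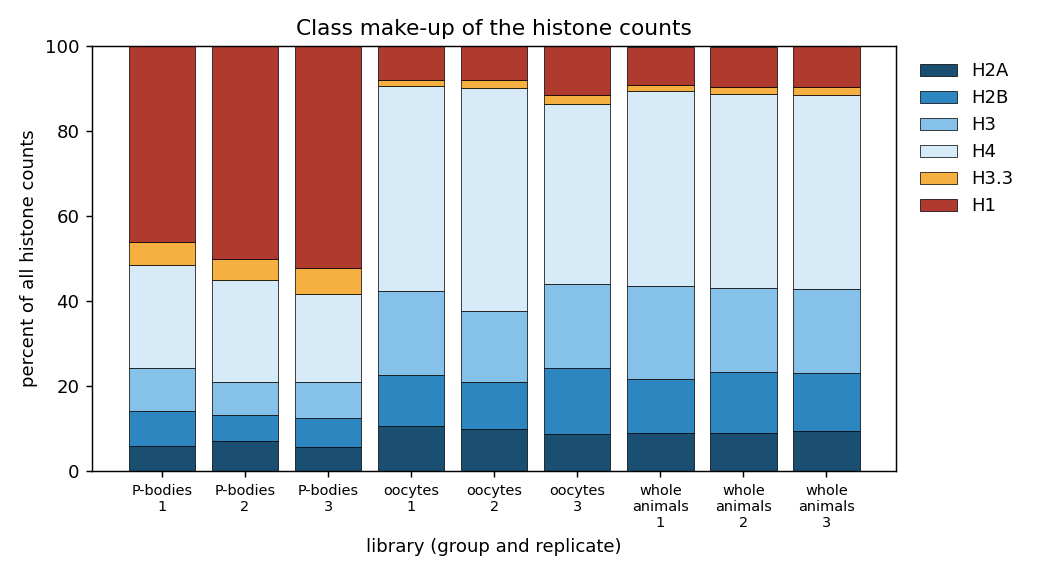
Share of histone counts (percent, linear axis from 0) taken by each class in each of the 9 libraries. The linker H1 share was 46.04% to 52.1% in the 3 P-body libraries and at most 11.4% in the others; his-35 and the 2 fragments are not drawn, so the bars end slightly under 100.

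The share of histone genes in the whole library depended on the denominator. Over all counts they made up 0.297% ± 0.0202 of the P-body, 0.122% ± 0.0272 of the oocyte and 0.0716% ± 0.0104 of the whole-animal libraries. Without the ribosomal RNA genes the order changed, with 1.013% ± 0.172 for oocytes, 0.853% ± 0.121 for whole animals and 0.449% ± 0.0601 for P-bodies. P-bodies did not overlap with either group under either denominator (exact permutation p = 0.1, n = 3). Oocytes and whole animals did not overlap over all counts (exact p = 0.1) and overlapped without ribosomal RNA (exact p = 0.3). In bulk samples such as the whole-animal extracts, fewer cells of a type and less RNA per cell cannot be told apart.

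A small number of genes carried most of this RNA. As a mean over the 9 libraries 10 members held 80.7% of histone counts, led by the H4 gene his-67 (18.7%), the linker gene hil-5 (14.1%) and the H3 gene his-59 (8.45%). The order differed between groups. The gene hil-5 held 32.5% of histone counts for P-bodies, 4.61% for oocytes and 5.10% for whole animals. For his-67 the shares were 10.3% ± 1.03, 24.1% ± 4.62 and 21.6% ± 0.864. Per length, in TPM, hil-5 stood at 2202 ± 35.5 and his-67 at 1271 ± 167 in P-bodies, while in oocytes they stood at 143 ± 31.6 and 1434 ± 669 (mean ± SD, n = 3). TPM are divided by totals that include ribosomal RNA, so the size of a change between groups differs from that with TMM. With TMM the means in P-bodies and oocytes were 258 and 83.5 CPM for hil-5 and 82.5 and 463 CPM for his-67.

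**Figure D2:**
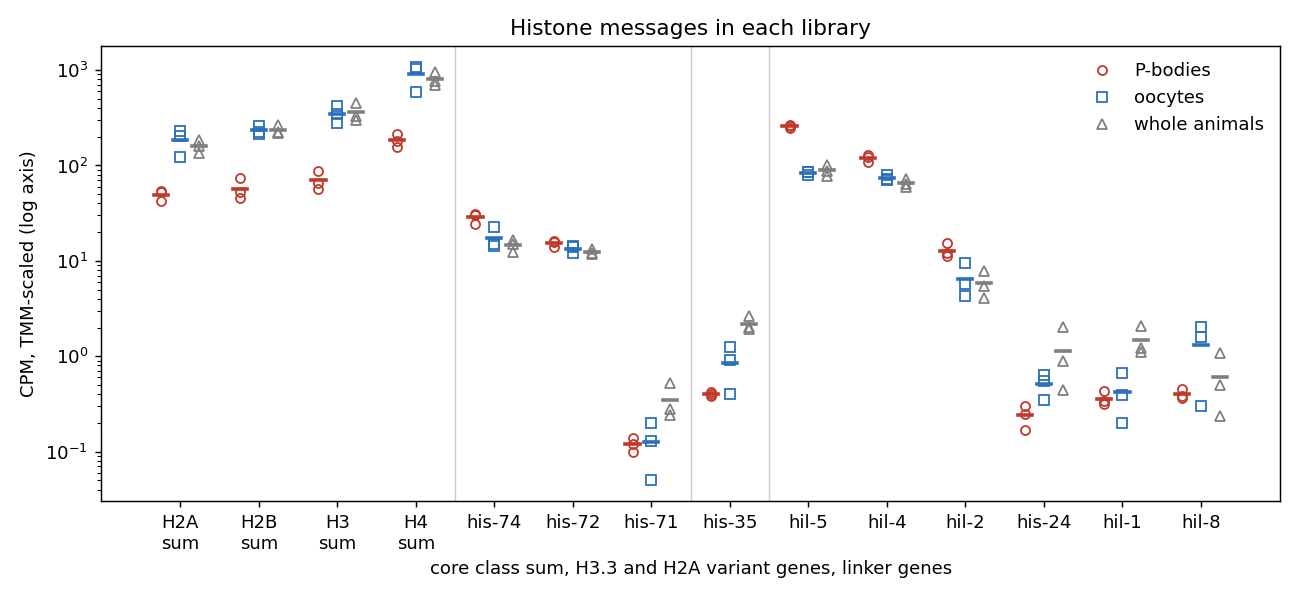
TMM-scaled CPM (log axis) of histone classes and single members in each library, 3 points a group. Core class sums lie lower, and hil-5, hil-4, hil-2 and his-74 higher, in P-bodies than in the other groups on this scale. With library totals the core sums had log2 changes of 0.20 to 0.62 against oocytes, of which those of H2A and H2B passed the test. Values of 0 are not drawn.

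P-bodies were first compared with the oocytes. Relative to the typical gene, core histone RNA was lower in P-bodies in all 4 class sums, whereas with library totals the sums of H2A and H2B were higher and those of H3 and H4 did not pass the test. The H4 genes summed to 213, 179 and 157 CPM in the P-body libraries, 1034, 1088 and 591 in oocytes and 945, 698 and 763 in whole animals. The P-body libraries lay below all the others, and the third oocyte library was the lowest of its group. The change of P-bodies against oocytes was -2.30 ± 0.23 on the log2 scale (SE; edgeR quasi-likelihood test, Benjamini-Hochberg adjusted p = 2.95e-06) and 0.21 with library totals (adjusted p = 0.356).

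The other core classes had a change of similar size. H3 genes summed to 88.5, 56.7 and 64.9 CPM in P-bodies, 420, 348 and 279 in oocytes and 455, 301 and 328 in whole animals. Their change against oocytes was -2.32 ± 0.22 (edgeR adjusted p = 3.43e-06) and 0.20 with library totals (adjusted p = 0.311). H2B genes summed to 73.15, 46.1 and 52.4 CPM, 258, 226 and 216 CPM, and 263, 218 and 226 CPM in the 3 groups, and H2A genes to 52.3, 53.7 and 42.5, 229, 206 and 122.8, and 184, 136.2 and 158 CPM. In neither class did a P-body library reach any oocyte library. The H2B sum had a log2 change of -2.03 ± 0.16 (edgeR adjusted p = 4.51e-07; 0.49 with library totals, adjusted p = 0.00954), and the H2A sum one of -1.91 ± 0.22 (edgeR adjusted p = 2.13e-05; 0.62 with library totals, adjusted p = 0.00704). Of all features in the fit with class sums, 26.7% were higher and 28.7% lower with TMM, and 79.8% and 3.36% with library totals. Leaving the ribosomal RNA out of the library totals gave -1.85 for H2A, -1.97 for H2B, -2.25 for H3 and -2.24 for H4.

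Of the 48 members tested singly, 4 were higher and 30 lower in P-bodies than in oocytes, against a background of 26.7% higher and 28.8% lower among all 10162 genes tested. With library totals 22 were higher and 0 lower, against 79.6% and 3.35% of all genes (edgeR adjusted p under 0.05; 23 members had an unadjusted p under 0.05, and DESeq2 with its own size factors called 4 higher and 30 lower, against 27.1% and 31.4%). Of 36 core genes tested, 0 were higher and 28 lower with TMM (DESeq2 likewise, with 30 at an unadjusted edgeR p under 0.05), namely 6 of 8 H2A, 4 of 8 H2B, 9 of 9 H3 and 9 of 11 H4 genes. Among 12 variant and linker genes 4 were higher and 2 lower. With library totals 10 of these 12 were higher, beside 79.6% of all genes. Without those that passed the filter only through P-body counts, 7 of 9 were higher on that scale. With TMM the median log2 change was -2.12 over the core genes, beside -0.06 over all genes. The variant and linker genes other than hil-3, hil-6 and his-71, which passed the filter only through their P-body counts, ranged from -1.71 for hil-8 to 1.63 for hil-5. Between the same groups 3 gonadal sheath markers summed to 0.427 to 0.504 CPM in P-bodies and 9.56 to 16.2 in oocytes, 4 muscle markers to 9.92 to 12.8 and 42.5 to 137, and 3 hypodermis markers to 0.340 to 0.719 and 0.750 to 10.1. The 4 neuron markers summed to 36.6 to 45.3 CPM in P-bodies and 21.02 to 29.3 in oocytes, of which unc-119 alone gave 24.7 to 34.4 and 8.21 to 16.1. The part of these lists, and of the intestine genes above, in the histone results was not tested.

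The most abundant copy of each core class is given with its values, as uncertain for a single copy. The H4 gene his-67 (chromosome I, 9988341 to 9988826) stood at 92.7, 84.5 and 70.3 CPM in P-bodies and at 563, 565 and 263 in oocytes. Its log2 change was -2.49 ± 0.29 (edgeR adjusted p = 6.24e-05), and 0.03 with library totals (adjusted p = 0.923). The H3 gene his-59 changed by -2.29 ± 0.25 (adjusted p = 3.38e-05), the H2B gene his-62 by -2.10 ± 0.24 (adjusted p = 3.44e-05) and the H2A gene his-61 by -1.72 ± 0.23 (adjusted p = 0.000148), all in edgeR. With library totals these 3 stood at 0.23, 0.42 and 0.80. At the extremes of the tested copies, his-64 (H4) stood at -2.62, his-6 (H3) at -2.55, his-47 (H2A) at -2.31, his-32 (H3) at -1.83, and his-11 (H2B) at -3.12 without passing the test (adjusted p = 0.0813). The change of his-11 did pass without P-body library 1 (-5.57, edgeR adjusted p = 0.0116) and without oocyte library 2 (-3.52, edgeR adjusted p = 0.0490).

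Some tested core copies did not pass the test. The H4 gene his-56 stood at 1.36, 0.170 and 0.480 CPM in the P-body libraries and at 0.735, 0.747 and 0.730 in oocytes. Its P-body libraries spread around the oocyte level, and its log2 change of -0.14 ± 0.62 did not pass (edgeR adjusted p = 0.864; 2.34 with library totals, adjusted p = 0.00166). The intron-bearing H2B gene his-41 stood at -0.07 ± 0.44 (adjusted p = 0.9; 2.43 with library totals) and the intron-bearing H4 gene his-37 at -0.81 ± 0.38 (adjusted p = 0.0921). Both overlap a coding gene, so reads of the neighbours cannot be told apart from theirs.

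**Figure D3:**
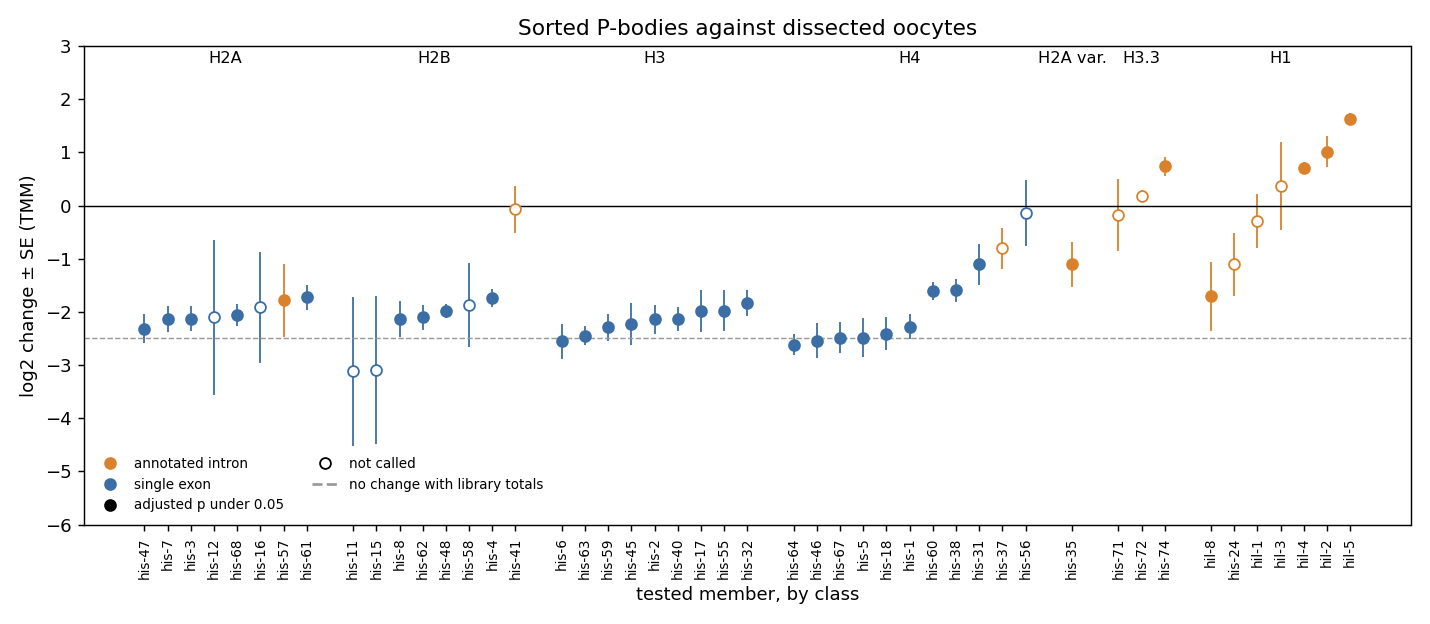
Log2 change of P-bodies against oocytes with TMM scaling (linear axis, points with SE bars from edgeR) for each tested member by class, intron-bearing members in orange. The single-exon core genes lie from -3.12 to -0.14 and hil-5 at 1.63. The dashed line marks no change with library totals, and points well above it have values above 0 on that scale. hil-6, at 0 in oocytes, is not drawn.

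The members were also set apart by gene structure. Of 33 single-exon members tested, all of them core genes, 0 were higher and 27 lower in P-bodies (median log2 change -2.13; 29 had an unadjusted p under 0.05, and DESeq2 also called 0 and 27). Of 15 tested members with introns 4 were higher and 3 lower (median -0.07, also without the 4 of them that passed the filter only through P-body counts). The background was the same 26.7% and 28.8%. With library totals, which shift all genes together, the medians were 0.40 for single-exon and 2.43 for intron-bearing members, beside 2.44 over all genes. Of the 33 single-exon members 10 were then higher, 0 lower and 23 not called, beside 79.6% higher and 3.35% lower among all genes. Of the 31 divergent pairs 18 had both genes tested, and both were called lower with TMM in 13 of them. The change of the 2 genes of a pair differed by a median of 0.41, from 0.0030 for his-8 and his-7 to 1.83 for his-55 and his-56. Of all 36 core genes tested 28 were lower, and pairs were not compared with genes that are not neighbours.

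Linker histone genes differed among themselves. The most abundant, hil-5 (chromosome I, 5774585 to 5775610), stood at 263, 248 and 261 CPM in P-bodies, at 85.9, 84.6 and 80.2 in oocytes and at 102, 78.3 and 86.8 in whole animals. All P-body libraries lay above all others. The log2 change against oocytes was 1.63 ± 0.11 (edgeR adjusted p = 1.37e-07) and 4.14 with library totals. The gene hil-4 (chromosome V, 4754313 to 4755469) stood at 130.004, 109 and 122.1 CPM in P-bodies and 78.9, 70.7 and 72.2 in oocytes, also without overlap, with a change of 0.70 ± 0.11 (edgeR adjusted p = 0.000123; 3.22 with library totals).

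The linker gene hil-2 (chromosome IV, 6294234 to 6295219), which an annotated microRNA gene overlaps, stood at 11.2, 15.3 and 12.02 CPM in P-bodies and at 5.70, 9.41 and 4.24 in oocytes, with no overlap between the groups. It changed by 1.014 ± 0.30 (edgeR adjusted p = 0.0142; 3.52 with library totals). In contrast hil-8 was lower, at 0.454, 0.384 and 0.366 CPM against 0.302, 2.04 and 1.60. The groups overlapped, and the change of -1.71 ± 0.64 (edgeR adjusted p = 0.0376; 0.73 with library totals, adjusted p = 0.291) no longer passed without any 1 of the P-body libraries, without oocyte library 2 or without oocyte library 3 (adjusted p 0.0793 to 0.136).

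The remaining linker genes were scarce. The gene his-24, which encodes an H1 linker histone studied in germline silencing, stood at 0.302, 0.167 and 0.249 CPM in P-bodies and 0.346, 0.548 and 0.632 in oocytes. These groups did not overlap, but the change of -1.10 ± 0.59 did not pass (edgeR adjusted p = 0.132; 1.38 with library totals, adjusted p = 0.0506). For hil-1 the change was -0.29 ± 0.51 (adjusted p = 0.652) and for hil-3 0.37 ± 0.83 (adjusted p = 0.73), in edgeR. The gene hil-6 had 11, 12 and 12 counts in P-bodies and 0 in all other libraries, and passed the filter only through its P-body counts. With 3 counts over the other group as a floor, its ratio to oocytes was 1.32 with TMM scaling and 7.5 with library totals. The same ratio to whole animals was 0.952 and 8.65. These ratios carry no error and are not a test. In the test of P-bodies against oocytes with TMM hil-6 did not pass (edgeR adjusted p = 0.0727). The gene hil-7 had 1, 12 and 0 counts in P-bodies and was not tested.

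Of the H3.3 genes, his-74 (chromosome V, 12659704 to 12660330) stood at 31.02, 24.6 and 30.3 CPM in P-bodies, 14.9, 22.6 and 14.4 in oocytes and 16.6, 12.5 and 14.985 in whole animals. No P-body library overlapped with the other groups, although oocyte library 2 came near. Its change against oocytes was 0.73 ± 0.17 (edgeR adjusted p = 0.00308; 3.22 with library totals). The gene his-72 stood at 16.2, 13.8 and 15.8 CPM in P-bodies and 13.8, 11.995 and 14.4 in oocytes, which overlapped. Its change of 0.18 ± 0.12 did not pass (edgeR adjusted p = 0.199; 2.70 with library totals). The scarce his-71 stood at -0.18 ± 0.68 (adjusted p = 0.846), and his-69 and his-70 had 11 counts and 1 count over all libraries and were not tested.

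The H2A variant gene his-35 stood at 0.380, 0.417 and 0.400 CPM in P-bodies, 1.25, 0.398 and 0.908 in oocytes and 2.62, 2.001 and 1.93 in whole animals. P-bodies and oocyte library 2 overlapped, whereas whole animals lay above all other libraries. The change against oocytes was -1.11 ± 0.42 (edgeR adjusted p = 0.0389) and 1.44 with library totals (adjusted p = 0.00739). It no longer passed without any 1 of the P-body libraries, without oocyte library 1 or without oocyte library 3 (adjusted p 0.0802 to 0.156), nor in a fit of these 2 groups alone (adjusted p = 0.0703).

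Oocytes were then compared with whole animals. No core class sum passed the test with TMM, and the libraries overlapped in every class. The class sums had log2 changes of 0.22 ± 0.21 for H2A, -0.02 ± 0.16 for H2B, -0.05 ± 0.21 for H3 and 0.17 ± 0.22 for H4 (edgeR adjusted p = 0.572, 0.968, 0.915 and 0.68). With library totals they were 0.89, 0.66, 0.62 and 0.85, all higher in oocytes. Of all features in that fit, 0.711% were higher and 12.6% lower with TMM, and 51.9% and 11.9% with library totals. Of the 48 tested members 0 were higher and 1 lower in edgeR, beside a background of 0.709% higher and 12.5% lower, and 4 had an unadjusted p under 0.05. DESeq2 called 0 higher and 2 lower, beside 3.73% and 15.2% of all genes. With library totals 25 were higher and 0 lower, against 51.9% and 11.8%.

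The member that passed was hil-1, a scarce linker gene, at 0.389, 0.199 and 0.671 CPM in oocytes and 2.09, 1.22 and 1.10 in whole animals. The groups did not overlap, and its change of -1.74 ± 0.53 (edgeR adjusted p = 0.0467) did not pass without oocyte library 1, without oocyte library 2 or without any 1 of the whole-animal libraries (adjusted p 0.0707 to 0.184), nor with library totals (-1.06, adjusted p = 0.0998). The other intron-bearing members did not pass in edgeR and lay on both sides of 0, with a median over the 15 tested of -0.09. Below 0 were his-35 at -1.34 (adjusted p = 0.0578), his-41 at -1.24 (adjusted p = 0.103), his-37 at -1.04 (adjusted p = 0.113), his-24 at -1.14 (adjusted p = 0.268), his-71 at -1.35 (adjusted p = 0.272) and hil-3 at -1.44 (adjusted p = 0.345). Above 0 were hil-8 at 1.09 (adjusted p = 0.345), his-57 at 0.25 (adjusted p = 0.874) and hil-2 at 0.12 (adjusted p = 0.859). The summed level of the intestine, muscle and hypodermis marker lists was also higher in whole animals, for muscle 271 to 394 CPM against 42.5 to 137 in oocytes. The gonadal sheath list, at 7.47 to 11.6 CPM in whole animals and 9.56 to 16.2 in oocytes, overlapped between the groups. So did the neuron list, at 20.1 to 22.3 and 21.02 to 29.3 CPM. The part of these lists in the histone values was not tested. For the abundant members the changes were small, at -0.09 ± 0.11 for hil-5, 0.18 ± 0.11 for hil-4, 0.12 ± 0.12 for his-72 and 0.23 ± 0.18 for his-74, and with library totals they were 0.59, 0.86, 0.79 and 0.92.

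**Figure D4:**
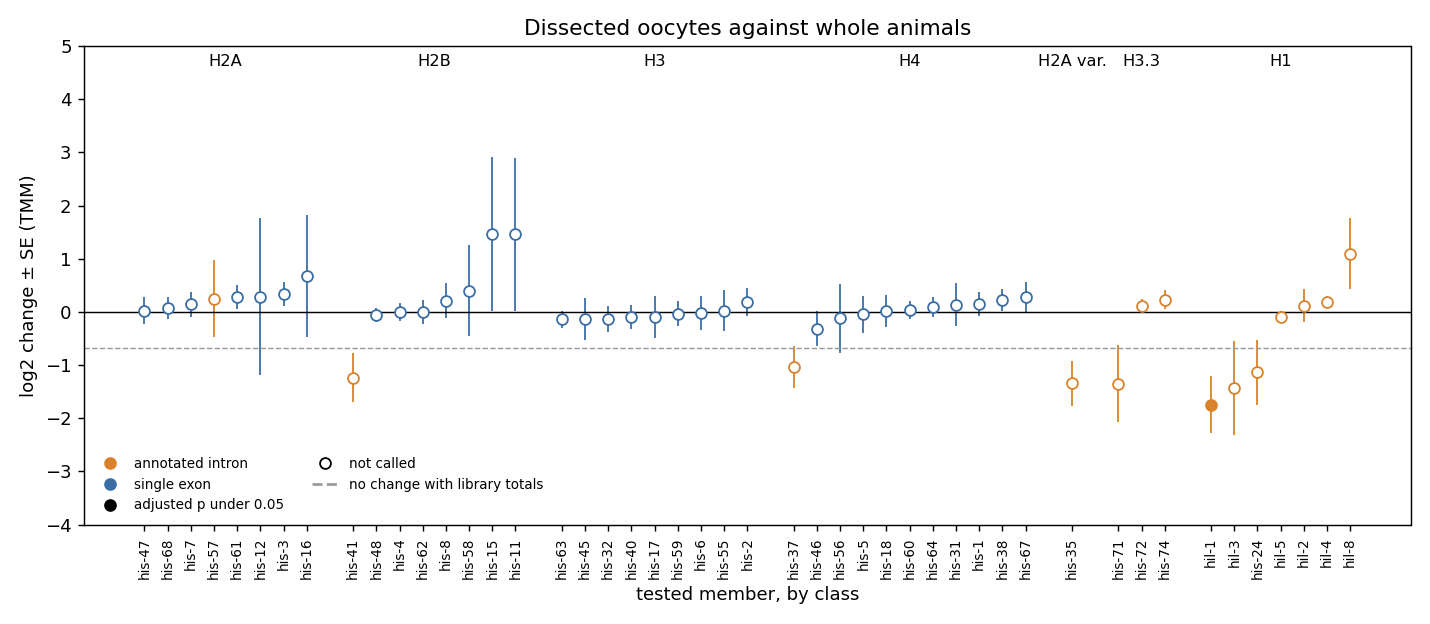
Log2 change of oocytes against whole animals with TMM scaling (linear axis, points with SE bars from edgeR) for each tested member by class. The core class medians lie between -0.10 and 0.27, and hil-1, at -1.74, is the only member with an adjusted p under 0.05. The dashed line marks no change with library totals. hil-6, at 0 in both groups, is not drawn.

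P-bodies were last compared with whole animals, using the same P-body libraries as the comparison with oocytes. Of the 48 tested members 5 were higher and 32 lower, against 27.9% and 38.9% of all genes, and with library totals 37 were higher and 0 lower, against 76.6% and 9.73%. The 37 held 10 of the 12 variant and linker genes. Without those that passed the filter only through P-body counts, 7 of 9 were higher on that scale. The class sums had log2 changes of -1.69 for H2A, -2.04 for H2B, -2.37 for H3 and -2.13 for H4, and of 1.504, 1.14, 0.82 and 1.06 with library totals, beside 28% higher and 38.8% lower of all features with TMM and 76.6% and 9.77% with library totals. In edgeR hil-5 was higher by 1.53 ± 0.11 (adjusted p = 1.63e-07), his-74 by 0.96 ± 0.17 (adjusted p = 0.000357), hil-2 by 1.13 ± 0.30 (adjusted p = 0.00633) and hil-4 by 0.89 ± 0.11 (adjusted p = 1.43e-05). The fifth, his-72, at 0.30 ± 0.12 (edgeR adjusted p = 0.0383), did not pass without P-body library 1 or 3 or without whole-animal library 1 or 2 (adjusted p 0.0761 to 0.1186), nor with a stricter count filter (0.17, adjusted p = 0.213). The scarce his-35 (-2.45 ± 0.42, adjusted p = 0.000219), his-24 (-2.24 ± 0.59, adjusted p = 0.00475) and hil-1 (-2.03 ± 0.50, adjusted p = 0.00313) were lower in edgeR with TMM and stood at 0.74, 0.95 and 1.16 with library totals.

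Other genes of histone supply were taken from a list of 20 chaperones, other variants and processing factors, 19 of which could be tested. In P-bodies against oocytes 5 were higher and 8 lower, beside 26.7% and 28.8% of all genes, with a median log2 change of -0.31. With library totals all 19 were higher, beside 79.6% of all genes, with a median of 2.19 beside 2.44 over all genes. The FACT subunit gene hmg-4 rose by 1.32 ± 0.13 (edgeR adjusted p = 2.76e-06) and nasp-1, a homologue of the H3-H4 chaperone NASP, by 1.16 ± 0.14 (adjusted p = 1.32e-05). The other FACT subunit genes of the list went the other way with TMM. Of these hmg-3 changed by -1.14 ± 0.13 (edgeR adjusted p = 7.01e-06), and spt-16 had a mean of 80.8 CPM in P-bodies and 169 in oocytes. The nucleosome assembly protein gene nap-1, at 25.8, 30.9 and 27.4 CPM in P-bodies and 129, 116 and 106 in oocytes, fell by 2.06 ± 0.11 (edgeR adjusted p = 2.09e-08; 0.46 with library totals), and nasp-2 by 1.35 ± 0.20 (adjusted p = 7.73e-05; 1.14 with library totals). So the NASP homologues differed in direction with TMM. The gene htz-1, which encodes H2A.Z, stood at 201, 275 and 217 CPM against 119.1, 117 and 75.1 and changed by 1.16 ± 0.18 (edgeR adjusted p = 0.000151). The gene cdl-1, which encodes the stem-loop binding protein, stood at 85.5, 91.9 and 90.6 CPM against 66.4, 68.1 and 57.7 and changed by 0.48 ± 0.09 (edgeR adjusted p = 0.00087). In both genes every P-body library lay above every oocyte library. Against whole animals 6 of the 19 were higher and 6 lower in P-bodies, beside 27.9% and 38.9% of all genes. Between oocytes and whole animals 0 passed in edgeR, beside 0.709% higher and 12.5% lower of all genes, and 6 had an unadjusted p under 0.05. DESeq2 called 2 of them higher and 0 lower, beside 3.73% and 15.2% of all genes.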

How the data were processed

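Per the labels' protocols, total RNA came from a kit meant for embedded tissue, was treated with DNase and freed of crosslinks, and was made into paired-end stranded total RNA libraries with a kit for low input. The submitters' processing notes name HISAT2 2.1.0, the WBcel235 build, bcl2fastq, FastQC, StringTie, HTSeq and DESeq2. The strand setting and the handling of fragments that match several copies are not given in the sources used here. The authors deposited raw counts per gene. They also deposited a StringTie table with TPM per gene, which served as an alternative, and FPKM and coverage, which were not used.

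Members were matched by symbol in the StringTie table and joined to the counts by gene identifier. All 80 were in the Ensembl annotation of WBcel235 (release 115), 30 with the same start and end. Classes came from textbook lists of symbols, because no protein sequence was at hand. Those of the H2A, H2B, H3 and H4 genes were checked against the coding length in the annotation, and the other classes were not. The longest coding length of the linker gene hil-7 was 66 codons, beside 67 for the fragment his-39. The members, the lists and the tests were chosen with earlier results of these data known.

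A filter by group asked for a minimum count of 10 and a minimum total of 15 and left 10162 genes. They were tested in edgeR 4.0.16 under R 4.3.3 by the quasi-likelihood method with TMM factors, all 9 libraries in 1 fit and 6 residual degrees of freedom, with Benjamini-Hochberg adjustment over all genes tested and a threshold of 0.05. For class sums the copies of each core class were replaced by their sum in the whole table, which left 10130 features. Shares were compared by two-sided exact permutation tests. Named genes were every variant and linker member, and in each core class the most abundant copy and the tested copies with the largest and smallest change of P-bodies against oocytes. From the chaperone and processing list they were the 2 largest rises, the 2 largest falls, cdl-1 and htz-1. his-37, his-57, unc-119, spn-4, cbd-1, rme-2, hmg-3, spt-16 and the members named in pairs were chosen after their values were seen. Alternatives were DESeq2 1.42.0, library totals with and without ribosomal RNA, other filters, limma 3.58.1 on log2(TPM + 1) and log2(TPM + 0.1), a fit of 2 groups, a replicate block and leaving out each library. The scripts were tested on simulated data. The depth of 27946955 to 78685226 counts leaves few counts on the scarce members.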

Additional observations from a re-analysis of the deposited data

How the results depend on the processing

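The choice of scaling moved the results most. With library totals, where ribosomal RNA fills most of the oocyte and whole-animal counts, and with limma on TPM, which divides by the same RNA, most directions of P-bodies against the other groups reversed, and without ribosomal RNA in the totals those of the core sums did not. Single core copies stay uncertain, and scarce members rest on few counts. The level of the class sums and core shares depends on how fragments that match several copies were counted. Summing copies by identical protein, and the search for the stem-loop, were not run.

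Members higher in P-bodies than in oocytes numbered 22 with library totals, 18 on log2(TPM + 1), 18 on log2(TPM + 0.1) and 15 on log2(TPM + 1) without a filter, and 0 were lower in each, beside 79.6%, 69.7%, 69.8% and 46.5% of all genes higher and 3.35%, 2.62%, 2.98% and 1.59% lower. The members tested numbered 48, 58, 58 and 72. Against whole animals the counts were 37, 32, 30 and 28 higher and 0 lower, beside 76.6%, 67.9%, 66.8% and 45.9% of all genes higher and 9.73%, 12.9%, 11.5% and 9.09% lower. For oocytes against whole animals they were 25, 10, 12 and 3 higher and 0, 2, 3 and 0 lower, beside 51.9%, 34.3%, 36% and 16.3% higher and 11.8%, 13%, 12.8% and 8.28% lower. The same comparison gave 1 higher and 0 lower of 42 members with library totals without ribosomal RNA, beside 11.9% and 13.8% of all genes. DESeq2 gave 0 higher and 2 lower of 48, beside 3.73% and 15.2%. A fit of the 2 groups gave 0 and 0 of 40, beside 0.564% and 11.3%. Leaving out each library gave 0 to 2 higher there, beside 0.216% to 2.16% of all genes, and 0 to 1 lower, beside 8.12% to 13.4%. The 2 higher came without oocyte library 3, beside 2.16%. In P-bodies against oocytes 19 chaperone and processing genes were higher with library totals and 18 on each TPM scale, and 0 lower. The shares of all genes beside these counts are those given above for that comparison.

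For class sums of P-bodies against oocytes the log2 changes were 0.62 (H2A), 0.49 (H2B), 0.20 (H3) and 0.21 (H4) with library totals. On log2(TPM + 1) they were 0.48, 0.29, 0.023 and 0.083, the same with and without a filter, and on log2(TPM + 0.1) 0.49, 0.29, 0.023 and 0.083. Against whole animals they were 1.504, 1.14, 0.82 and 1.06 with library totals and 1.28, 0.89, 0.59 and 0.82 on every TPM scale. For oocytes against whole animals library totals gave 0.89, 0.66, 0.62 and 0.85, and TPM gave 0.80 for H2A, 0.59 for H2B and 0.57 for H3. There H2B stood at 0.042 with DESeq2, 0.14 with library totals without ribosomal RNA, 0.014 without a filter and 0.012 in a fit of the 2 groups, and H3 at 0.0076 with DESeq2 and 0.10 without ribosomal RNA. Leaving out each library gave -0.089 to 0.072 for H2B and -0.20 to 0.15 for H3.

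By summed TPM the differences in share, in percentage points, were -2.03 (H2A), -6.74 (H3), 4.49 (H3.3) and 30.3 (H1) for P-bodies minus oocytes, and -1.33 (H2A), -5.34 (H2B), -8.16 (H3), -19.8 (H4), 4.596 (H3.3) and 30.1 (H1) for P-bodies minus whole animals, each of the same sign as by counts, while the H2A share of 1 P-body library then overlapped with both other groups. The histone share of all TPM differed by 0.383, by 0.593 and, for oocytes minus whole animals, by 0.211. Leaving out each library moved the oocyte minus whole-animal difference over -2.06 to 0.191 for H2B, -0.504 to 4.61 for H4, -0.0742 to 0.290 for H3.3 and -1.32 to 0.387 for H1.

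Single genes of P-bodies against oocytes reversed as follows, with library totals, log2(TPM + 1) and log2(TPM + 0.1) in that order. They were 2.22, 1.47 and 2.97 for hil-1, 0.73, 0.38 and 0.74 for hil-8, 1.38, 0.61 and 1.02 for his-24, 1.44, 1.05 and 1.38 for his-35, 2.32, 1.11 and 3.11 for his-71, and 0.67, 0.48 and 0.51 for his-32. The core copies stood at 2.43, 1.67 and 2.06 for his-41, 0.21, 0.015 and 0.019 for his-47, 2.34, 1.67 and 1.92 for his-56, 0.23, 0.061 and 0.061 for his-59, 0.80, 0.68 and 0.68 for his-61 and 0.42, 0.22 and 0.22 for his-62. The chaperones stood at 0.46, 0.27 and 0.28 for nap-1 and 1.14, 1.02 and 1.02 for nasp-2, and his-67 was at 0.026 with library totals. Without a count filter his-71 was at 0.055, his-41 at 0.16 and his-56 at 0.10. Leaving out each library gave -0.50 to 0.29 for hil-1, -0.14 to 1.33 for hil-3, -0.39 to 0.40 for his-71, -0.36 to 0.22 for his-41 and -1.17 to 0.32 for his-56. For oocytes against whole animals hil-5 was at 0.59 with library totals, 0.070 without ribosomal RNA and 0.52 by TPM, and leaving out each library gave -0.18 to 0.019 for hil-5 and -0.24 to 0.39 for hil-2.

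The labels do not say whether replicate numbers pair the samples, and the main fit used no pairing. The correlations of same-numbered P-body and oocyte libraries were 0.137, 0.0997 and 0.104. Each was the highest for its number, which is a hint of pairing from the data only. The other comparisons each had some same-numbered correlations below 0. With the replicate number as a block the members called were 4 higher and 27 lower in P-bodies against oocytes, 5 higher and 31 lower against whole animals, and 0 higher and 0 lower in oocytes against whole animals, beside 26.1% and 26.6%, 27.5% and 37.9%, and 0.669% and 11.3% of all genes. The block gave -1.88, -2.05, -2.33 and -2.28 for the H2A, H2B, H3 and H4 sums of P-bodies against oocytes. Among single genes the calls of hil-8 (adjusted p = 0.103), his-35 (adjusted p = 0.0812) and, for oocytes against whole animals, hil-1 (adjusted p = 0.0845) did not pass with the block in edgeR. The cause of these movements was not tested. Of single-gene values over all alternatives, 483 kept direction and side of the threshold, 29 newly passed, 40 no longer passed and 76 changed sign. Of the values of whole comparisons 388 kept direction and side of the threshold or stayed within their spread or, for counts of genes, within 1.5 times, 56 changed sign, 55 moved further than that and 4 newly passed.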
